A study of Homo sapiens with 6 samples.

Results

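The genes described here carry the interferon response and the detection of foreign or misplaced nucleic acids in human cells. They were taken by symbol from a fixed list of 37 genes, and 36 of the 22925 genes in the deposited table, 15630 of which carry a symbol, matched it, CGAS being entered in the list under its older symbol MB21D1. XAF1 was not analysed here. The 36 genes fall by role into 7 sensors and adaptors, 6 transcription factors and 23 effectors. They were followed in HT-1080, an established human fibrosarcoma line, kept for 48 h in DMEM with serum. PhenDC3 cells received PhenDC3 at 20 μM in medium with 1% DMSO, DMSO cells received 1% DMSO alone, and each group has 3 poly(A) RNA-seq libraries. PhenDC3 is a ligand of G quadruplexes, which are folded structures of guanine-rich DNA or RNA, and the study asked how stabilizing them alters transcript levels. All values come from 1 line. The labels do not say whether the 3 libraries of a group were grown apart, so every p-value reflects library-to-library spread alone, possibly technical spread.

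In this pathway, sensors in the cytosol bind DNA or RNA and pass a signal through adaptors to kinases, which activate the factors IRF3 and IRF7 and switch on interferon genes. Secreted interferon then binds receptors on the cell surface, and a complex of factors that holds STAT2 and IRF9 turns on a large set of effector genes through a promoter sequence called the interferon-stimulated response element, or ISRE. Fibroblast-like cells generally hold most of the sensors at a low resting level and make the effectors in larger amounts only once interferon is present.

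Reads recovered from the table came to between 7371056 and 9386691 per PhenDC3 library and between 12574952 and 14292987 per DMSO library. DMSO replicate 3 stood apart from the other DMSO libraries, as chi-square over genes divided by its degrees of freedom was 7.12 and 7.75 for its pairs and 1.45 to 2.68 for every other pair within a group, and calls among the 36 genes that are lost without it are named. Of 6 mesenchymal markers, which mark the kind of cell the line is labelled as, 4 were tested, and VIM, FN1 and SPARC were lower and COL1A1 was higher in PhenDC3. Their summed level was 27784 to 28344 normalized counts in PhenDC3 libraries and 42448 to 46541.5 in DMSO libraries. Of the epithelial markers 4 of 6 were analysed, at a summed level of 2438 to 2684 in PhenDC3 libraries and 2279 to 2801 in DMSO libraries, and ELF3 and KRT8 were higher. ELF3 rests on 24 reads over the PhenDC3 libraries and 1 over the DMSO libraries. KRT8 overlapped between the groups and did not pass with DESeq2 (adjusted p = 0.0715). Immune markers were low, with 2 of 6 analysed and a sum of 7.87 to 24.9 in PhenDC3 libraries against 6.19 to 8.56 in DMSO libraries, and CD68 was higher. Endothelial markers, 2 of 4 analysed, summed to 235 to 317 in PhenDC3 and 227 to 302 in DMSO libraries. Whether these markers play a part in the results below was not tested.

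The genes as a whole went both ways. A normalized count is a read count divided by the authors' size factor for its library, and a gene was tested if its mean over the 6 libraries was 5 or more. Of the 36 genes, 32 were tested, and 10 were higher and 12 lower in PhenDC3 at an adjusted p under 0.05, with limma across all genes tested. The background is large, as 59.6% of the 16482 genes tested were called, 29.2% higher and 30.4% lower, so that 22 of 32, or 68.8%, lies close to it. The median log2 fold change of the 32 was -0.14, beside -0.02 over all genes tested, with a range of -1.51 to 0.82. Libraries of the groups did not overlap in 23 of the 32, which was so for 64.1% of all genes tested. An estimate of a full log2 unit or more below DMSO was found for IFIT1, OAS1 and IFITM2, all of them called, and 1 as far above it for no gene. Of all genes tested, 1627 were both called and that far above, and 1065 were both called and that far below. edgeR on the recovered reads called 11 higher and 12 lower of the 29 genes it tested, beside 63.0% of all genes in its fit. DESeq2 called 8 higher and 9 lower of 36, beside 39.0% of all genes with an adjusted p. In bulk RNA, fewer cells with a transcript and less of it per cell cannot be told apart.

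By role, the sensors and adaptors gave 3 higher and 3 lower of 7 tested, the transcription factors 3 higher and 1 lower of 6, and the effectors 4 higher and 8 lower of 19. Over all genes tested, 29.2% were higher and 30.4% lower. Median log2 fold changes of the roles were -0.14, 0.25 and -0.20 in that order, and differences between the roles were not tested.

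**Figure D1:**
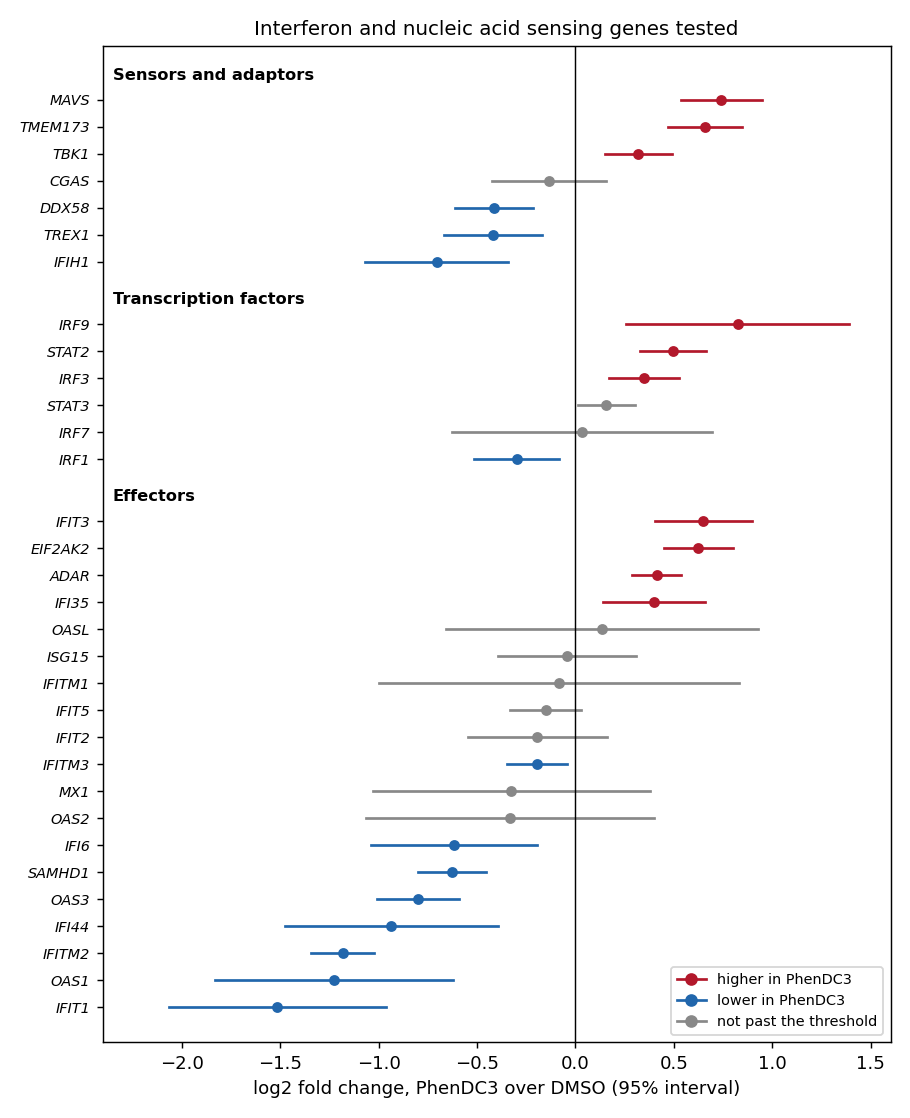
The log2 fold change of PhenDC3 over DMSO on the horizontal axis for each of the 32 genes tested, in 3 blocks by role, with points for the limma estimate and bars for its 95% interval. Intervals lie above 0 for 3 of the sensors and adaptors and below 0 for 3, and the effectors reach from 0.65 for IFIT3 to -1.51 for IFIT1.

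Among the sensors and adaptors, the genes that rose encode the adaptors and the kinase of the pathway, and those that fell encode 2 RNA receptors and a nuclease. MAVS (ENSG00000088888, chromosome 20) encodes the mitochondrial membrane adaptor on which the RNA receptors RIG-I and MDA5 signal. It had 984, 924 and 857 normalized counts in the PhenDC3 libraries, against 592, 623 and 452 in the DMSO libraries. All 3 PhenDC3 libraries were above all DMSO libraries, the lowest DMSO value being that of replicate 3, and the level was 1.66 times that in DMSO (limma adjusted p = 1.84e-06, log2 fold change 0.74 with SE 0.10). TMEM173 (ENSG00000184584, chromosome 5), which encodes STING, the adaptor of the endoplasmic reticulum that responds to the cyclic dinucleotide made by cGAS, had 624, 502 and 531 normalized counts in the PhenDC3 libraries, against 345, 368 and 333 in the DMSO libraries. It rose 1.58-fold without overlap (limma adjusted p = 2.69e-06, log2 fold change 0.66 with SE 0.09). TBK1 (ENSG00000183735, chromosome 12), the kinase that both adaptors recruit to phosphorylate IRF3, had 657, 802 and 689 normalized counts in the PhenDC3 libraries, against 573, 579.9 and 561 in the DMSO libraries. The DMSO libraries lay close together and all PhenDC3 libraries were above them, at 1.25-fold on average (limma adjusted p = 0.00197, log2 fold change 0.32 with SE 0.08). GENCODE places an antisense transcript over 702 exonic bases of TBK1 on the other strand, which was not analysed here.

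The DNA sensor itself gave no call. CGAS (ENSG00000164430, chromosome 6), which makes the cyclic dinucleotide read by STING, had 85.2, 95.3 and 73.5 normalized counts in the PhenDC3 libraries, against 94.2, 87.4 and 96.5 in the DMSO libraries. The groups overlapped (limma, log2 fold change -0.14, 95% interval -0.43 to 0.15, adjusted p = 0.414). TREX1 (ENSG00000213689, chromosome 3), the exonuclease that degrades cytosolic DNA before cGAS meets it, had 143, 147 and 118 normalized counts in the PhenDC3 libraries, against 172, 170.1 and 204 in the DMSO libraries. It was at 0.748 of its DMSO level with no overlap (limma adjusted p = 0.00524, log2 fold change -0.42 with SE 0.12). All 1515 of its exonic bases lie within the neighbouring gene ATRIP on the same strand in GENCODE 29, so how reads were divided is uncertain, and ATRIP was also lower (limma, log2 fold change -0.82, adjusted p = 2.72e-06).

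Both RNA receptors listed among the sensors and adaptors fell. IFIH1 (ENSG00000115267, chromosome 2), which encodes MDA5, the receptor for long double-stranded RNA, had 41.4, 53.6 and 39.4 normalized counts in the PhenDC3 libraries, against 81.7, 77.3 and 61.4 in the DMSO libraries. Every PhenDC3 library was below every DMSO library, and the mean level was 0.610 of that in DMSO (limma adjusted p = 0.00163, log2 fold change -0.70 with SE 0.17). DDX58 (ENSG00000107201, chromosome 9), which encodes RIG-I, the receptor for RNA with a triphosphate at its start, had 211, 216 and 245 normalized counts in the PhenDC3 libraries, against 295, 309 and 290.3 in the DMSO libraries. Again the groups did not overlap, at 0.751 of the DMSO level (limma adjusted p = 0.000831, log2 fold change -0.41 with SE 0.09). The calls of TMEM173, MAVS, TBK1, TREX1, DDX58 and IFIH1 held under all 20 alternatives run.

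The windows around the transcription starts of MAVS and IFIH1 are shown because these 2 genes moved furthest among the sensors and adaptors. Each also holds 1 of the 2 motifs searched for. In MAVS the capitals mark a G quadruplex motif, meaning 4 runs of at least 3 G with 1 to 7 bases between them, and in IFIH1 they mark ISRE cores, GAAANNGAAA on either strand, the first 2 of which overlap. Both are RefSeq sequences of GRCh38.p14 in the direction of transcription, from 250 bases before the start to 50 after it, whereas the build named for the files is hg19. Over all RefSeq windows searched, 25.0% held the G quadruplex motif and 3.57% an ISRE core.
MAVS start window, chr20:3846584-3846883, plus strand: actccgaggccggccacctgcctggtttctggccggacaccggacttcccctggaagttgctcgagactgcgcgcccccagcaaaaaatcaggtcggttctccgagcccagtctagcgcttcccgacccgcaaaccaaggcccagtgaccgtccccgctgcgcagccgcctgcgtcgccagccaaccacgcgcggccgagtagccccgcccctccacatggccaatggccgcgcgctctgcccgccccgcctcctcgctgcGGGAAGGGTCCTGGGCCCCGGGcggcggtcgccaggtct
IFIH1 start window, chr2:162318635-162318934, minus strand: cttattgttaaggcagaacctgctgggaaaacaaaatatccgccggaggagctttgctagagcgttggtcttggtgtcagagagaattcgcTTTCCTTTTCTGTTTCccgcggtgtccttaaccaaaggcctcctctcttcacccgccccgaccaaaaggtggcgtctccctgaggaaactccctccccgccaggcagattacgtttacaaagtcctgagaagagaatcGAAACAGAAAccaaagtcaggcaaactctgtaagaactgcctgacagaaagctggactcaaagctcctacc

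Of the transcription factors, IRF3, STAT2 and IRF9 were higher and IRF1 was lower. STAT2 (ENSG00000170581, chromosome 12) encodes a subunit of the complex that binds the ISRE after interferon. It had 624, 546 and 609 normalized counts in the PhenDC3 libraries, against 435, 422 and 402 in the DMSO libraries. The PhenDC3 values were all higher, at 1.41-fold (limma adjusted p = 2.24e-05, log2 fold change 0.50 with SE 0.08). IRF9 (ENSG00000213928, chromosome 14), the DNA-binding subunit of that complex, was low, with 27.2, 20.8 and 24.9 normalized counts in the PhenDC3 libraries, against 14.0, 17.0 and 9.65 in the DMSO libraries. These are 23, 14 and 19 reads in PhenDC3 libraries and 18, 22 and 14 in DMSO libraries, at 1.79-fold after scaling (limma adjusted p = 0.0131, log2 fold change 0.82 with SE 0.27). The call was lost without DMSO replicate 3 (limma, adjusted p = 0.0726) and without PhenDC3 replicate 1 (limma, adjusted p = 0.0531), and with DESeq2 (adjusted p = 0.0981). IRF9 shares 1838 exonic bases with the gene AL136295.5 on the same strand, so its reads may be divided.

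IRF3 (ENSG00000126456, chromosome 19), the factor activated by TBK1, had 549, 521 and 479 normalized counts in the PhenDC3 libraries, against 374, 413 and 429 in the DMSO libraries. It rose 1.27-fold with no overlap (limma adjusted p = 0.00137, log2 fold change 0.35 with SE 0.08). Over 734 exonic bases it runs opposite BCL2L12, which was lower (limma, log2 fold change -0.77, adjusted p = 2.72e-06), and the sources used here do not give the strand setting of the counting. IRF1 (ENSG00000125347, chromosome 5), a factor induced by interferon gamma and by NF-kB, had 179, 167 and 160.1 normalized counts in the PhenDC3 libraries, against 198, 203 and 222 in the DMSO libraries. Its level was 0.812 of that in DMSO (limma adjusted p = 0.0175, log2 fold change -0.30 with SE 0.10), and the call was lost without DMSO replicate 3 (limma, adjusted p = 0.0558), without PhenDC3 replicate 3 (limma, adjusted p = 0.0714) and with DESeq2 (adjusted p = 0.0877). C5orf56, at 7.34 normalized counts in PhenDC3 and 8.5 in DMSO, runs opposite 1716 exonic bases of IRF1. IRF7, which amplifies interferon production and is itself induced by interferon, had 11.8 to 16.4 normalized counts in PhenDC3 and 8.96 to 20.2 in DMSO libraries (limma, log2 fold change 0.03, 95% interval -0.63 to 0.69, adjusted p = 0.937). STAT3, the factor downstream of interleukin 6, had 1477, 1304 and 1447 normalized counts in the PhenDC3 libraries, against 1288, 1298 and 1201 in the DMSO libraries. Its groups did not overlap, yet it stood at the threshold (limma, log2 fold change 0.16, 95% interval 0.01 to 0.30, adjusted p = 0.0546) and passed it in edgeR (adjusted p = 0.0359).

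The effectors that rose were ADAR, EIF2AK2, IFIT3 and IFI35. EIF2AK2 (ENSG00000055332, chromosome 2) encodes PKR, the kinase that halts translation when it binds double-stranded RNA. It had 1427, 1678 and 1454 normalized counts in the PhenDC3 libraries, against 1076, 1024 and 862 in the DMSO libraries. The lowest PhenDC3 library was well above the highest DMSO library, and the level rose 1.54-fold (limma adjusted p = 2.02e-06, log2 fold change 0.62 with SE 0.08). ADAR (ENSG00000160710, chromosome 1), which edits adenosine to inosine in double-stranded RNA and so keeps cellular RNA from being sensed, had 4477, 4526 and 4356 normalized counts in the PhenDC3 libraries, against 3479.7, 3411 and 3146 in the DMSO libraries. It rose 1.33-fold, with small spread in both groups (limma adjusted p = 5.61e-06, log2 fold change 0.41 with SE 0.06). IFI35 (ENSG00000068079, chromosome 17), an interferon-induced protein with a leucine zipper, had 130.2, 126 and 147 normalized counts in the PhenDC3 libraries, against 104, 92.0 and 110.3 in the DMSO libraries. The groups did not overlap (limma adjusted p = 0.00939, log2 fold change 0.40 with SE 0.12), but the call was lost without PhenDC3 replicate 3 (limma, adjusted p = 0.0546), without DMSO replicate 2 (limma, adjusted p = 0.0577) and with DESeq2 (adjusted p = 0.0575).

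The IFIT genes, neighbours on chromosome 10 some of whose products bind foreign RNA, did not move together. IFIT1 (ENSG00000185745, chromosome 10) had 17.8, 8.93 and 15.7 normalized counts in the PhenDC3 libraries, against 50.6, 37.9 and 35.2 in the DMSO libraries. All PhenDC3 values were under all DMSO values, and the level was 0.343 of that in DMSO, the largest fall among the 32 genes (limma adjusted p = 5.22e-05, log2 fold change -1.51 with SE 0.26). It rests on 15, 6 and 12 reads in PhenDC3 libraries and 65, 49 and 51 in DMSO libraries. IFIT3 (ENSG00000119917, chromosome 10) had 149, 144 and 140.4 normalized counts in the PhenDC3 libraries, against 87.2, 97.4 and 91.0 in the DMSO libraries. Its libraries were tightly grouped and it rose 1.57-fold (limma adjusted p = 8.82e-05, log2 fold change 0.65 with SE 0.12). Per kilobase of exon, the level of IFIT3 over that of IFIT1 within a library was 14.7, 28.2 and 15.6 in PhenDC3 and 3.01, 4.49 and 4.52 in DMSO, a pair of genes chosen after their values were seen. IFIT2 had 53.8 to 80.4 normalized counts in PhenDC3 and 64.1 to 75.5 in DMSO (limma, log2 fold change -0.19, 95% interval -0.55 to 0.16, adjusted p = 0.334). IFIT5 had 311 to 349.8 normalized counts in PhenDC3 and 349.5 to 386 in DMSO, the groups just overlapping (limma, log2 fold change -0.15, 95% interval -0.33 to 0.03, adjusted p = 0.14).

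Start windows of IFIT1 and IFIT3 are shown because the genes are neighbours, hold the same motif and moved in opposite directions, and that of EIF2AK2 because it rose and its single core lies across the start site. EIF2AK2 also holds a G quadruplex motif further upstream, left in lower case. Capitals mark ISRE cores, here on the opposite strand in the IFIT genes and on the strand of the gene in EIF2AK2. For IFIT3 the first of 2 RefSeq starts is given.
IFIT1 start window, chr10:89392373-89392672, plus strand: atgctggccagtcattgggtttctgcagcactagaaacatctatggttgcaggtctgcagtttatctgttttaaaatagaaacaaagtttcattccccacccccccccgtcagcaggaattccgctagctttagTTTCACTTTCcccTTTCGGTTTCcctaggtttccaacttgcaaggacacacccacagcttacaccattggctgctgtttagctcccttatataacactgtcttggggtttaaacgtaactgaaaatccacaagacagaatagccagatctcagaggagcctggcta
IFIT3 start window, chr10:89327747-89328046, plus strand: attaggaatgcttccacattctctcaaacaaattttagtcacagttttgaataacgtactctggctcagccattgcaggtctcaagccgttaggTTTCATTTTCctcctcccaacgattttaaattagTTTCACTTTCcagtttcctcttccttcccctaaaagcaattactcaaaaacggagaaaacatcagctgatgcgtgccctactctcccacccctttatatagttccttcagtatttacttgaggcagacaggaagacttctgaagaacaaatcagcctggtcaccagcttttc
EIF2AK2 start window, chr2:37156931-37157230, minus strand: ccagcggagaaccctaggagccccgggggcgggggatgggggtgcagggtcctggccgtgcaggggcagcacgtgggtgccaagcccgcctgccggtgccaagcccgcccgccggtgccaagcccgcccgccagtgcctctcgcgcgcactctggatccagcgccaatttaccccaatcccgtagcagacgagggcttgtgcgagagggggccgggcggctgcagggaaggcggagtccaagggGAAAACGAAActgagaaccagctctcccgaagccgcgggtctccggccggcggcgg

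The genes of the OAS family were lower where they were called. Most of its members are enzymes that make short oligoadenylates when they bind double-stranded RNA. OAS3 (ENSG00000111331, chromosome 12), the member that needs the longest RNA, had 159, 161 and 152 normalized counts in the PhenDC3 libraries, against 291, 282 and 251 in the DMSO libraries. PhenDC3 values lay within a narrow band below every DMSO value (limma adjusted p = 8.72e-07, log2 fold change -0.80 with SE 0.10). OAS1 (ENSG00000089127, chromosome 12) was low, with 8.28, 7.44 and 13.1 normalized counts in the PhenDC3 libraries, against 21.0, 24.0 and 24.8 in the DMSO libraries. It was at 0.413 of its DMSO level (limma adjusted p = 0.0011, log2 fold change -1.23 with SE 0.29). The call rests on 7, 5 and 10 reads in PhenDC3 libraries and 27, 31 and 36 in DMSO libraries (DESeq2 adjusted p = 0.0231). OAS2 had 5.96 to 9.18 normalized counts in PhenDC3 and 8.56 to 12.4 in DMSO (limma, log2 fold change -0.33, 95% interval -1.07 to 0.40, adjusted p = 0.428), and OASL, a relative that lacks the enzyme activity, had 7.44 to 9.47 in PhenDC3 and 5.52 to 11.7 in DMSO (limma, log2 fold change 0.13, 95% interval -0.66 to 0.93, adjusted p = 0.78). The start window of OAS3 is shown since it is the most clearly called fall in this family and holds 2 ISRE cores, in capitals.
OAS3 start window, chr12:112938224-112938523, plus strand: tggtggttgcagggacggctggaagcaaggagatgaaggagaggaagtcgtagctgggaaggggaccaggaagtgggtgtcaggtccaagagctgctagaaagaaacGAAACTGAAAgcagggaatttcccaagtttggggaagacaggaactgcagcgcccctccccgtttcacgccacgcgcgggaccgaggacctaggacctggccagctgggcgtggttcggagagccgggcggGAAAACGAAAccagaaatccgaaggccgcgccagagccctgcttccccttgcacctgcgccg

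IFITM2 and IFITM3 fell, and IFITM1 gave no call. The IFITM proteins sit in membranes and block the entry of enveloped viruses. IFITM2 (ENSG00000185201, chromosome 11) had 505, 438 and 457 normalized counts in the PhenDC3 libraries, against 1046, 1017 and 1112 in the DMSO libraries. It was at 0.441 of its DMSO level, the smallest adjusted p of the 32 genes (limma adjusted p = 6.15e-11, log2 fold change -1.18 with SE 0.08). IFITM3 (ENSG00000142089, chromosome 11) had 1665, 1399 and 1538 normalized counts in the PhenDC3 libraries, against 1704, 1666 and 1899.8 in the DMSO libraries. Its highest PhenDC3 library was barely under its lowest DMSO library, and the level was 0.873 of that in DMSO (limma adjusted p = 0.0266, log2 fold change -0.20 with SE 0.07). That call was lost without DMSO replicate 3 (limma, adjusted p = 0.0625), without PhenDC3 replicate 2 (limma, adjusted p = 0.163), without PhenDC3 replicate 3 (limma, adjusted p = 0.0726) and with DESeq2 (adjusted p = 0.0509). Per kilobase of exon, IFITM3 over IFITM2 within a library was 3.77, 3.66 and 3.86 in PhenDC3, against 1.86, 1.88 and 1.96 in DMSO, again a pair chosen after seeing the values. IFITM1 had 2.98 to 9.18 normalized counts in PhenDC3 and 5.41 to 6.23 in DMSO (limma, log2 fold change -0.08, 95% interval -1.0 to 0.83, adjusted p = 0.882). The 3 genes resemble each other, and 15.8% of the 50-base words of IFITM2, 20.3% of those of IFITM3 and 42.3% of those of IFITM1 occur in transcripts of other genes, so reads may be shared between them.

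Other effectors that fell were SAMHD1, IFI44 and IFI6. SAMHD1 (ENSG00000101347, chromosome 20) encodes the enzyme that breaks down deoxynucleotides and so limits reverse transcription. It had 304, 290.3 and 289 normalized counts in the PhenDC3 libraries, against 479, 451 and 436 in the DMSO libraries. The level was 0.646 of that in DMSO and no library overlapped (limma adjusted p = 1.8e-06, log2 fold change -0.63 with SE 0.08). TLDC2, at 1.68 normalized counts in PhenDC3 and 4.23 in DMSO, runs opposite 1159 of its exonic bases. IFI44 (ENSG00000137965, chromosome 1) had 11.8, 16.4 and 19.7 normalized counts in the PhenDC3 libraries, against 35.8, 23.2 and 35.2 in the DMSO libraries. Its PhenDC3 values, all of them lower, averaged 0.509 of the DMSO level (limma adjusted p = 0.00419, log2 fold change -0.93 with SE 0.26). The call rests on 10, 11 and 15 reads in PhenDC3 libraries and 46, 30 and 51 in DMSO libraries (DESeq2 adjusted p = 0.0384). IFI6 (ENSG00000126709, chromosome 1), a mitochondrial and reticulum membrane protein, had 27.2, 26.8 and 22.3 normalized counts in the PhenDC3 libraries, against 43.6, 35.6 and 39.3 in the DMSO libraries. It was at 0.644 of its DMSO level (limma adjusted p = 0.0129, log2 fold change -0.62 with SE 0.20), and the call was lost without DMSO replicate 1 (limma, adjusted p = 0.0647), with thinned reads (limma, adjusted p = 0.114) and with DESeq2 (adjusted p = 0.117).

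ISG15 and MX1, which are widely used as readouts of interferon signalling, gave no call. ISG15, a ubiquitin-like modifier, had 61.5, 55.1 and 55.1 normalized counts in the PhenDC3 libraries, against 47.5, 64.2 and 66.9 in the DMSO libraries. The groups overlapped (limma, log2 fold change -0.04, 95% interval -0.39 to 0.31, adjusted p = 0.847). MX1, a GTPase that traps viral capsids, had 7.10, 11.9 and 19.7 normalized counts in the PhenDC3 libraries, against 12.4, 17.0 and 16.6 in the DMSO libraries. It too overlapped, and the interval was wide at this depth (limma, log2 fold change -0.33, 95% interval -1.03 to 0.38, adjusted p = 0.421). Of the effectors too low to be tested, RSAD2, which encodes viperin, had 2, 9 and 3 reads in PhenDC3 libraries and 2, 5 and 1 in DMSO libraries. Over the groups this is a ratio of 3.09 after scaling (95% exact interval 1.21 to 8.51, for counting error only), and 9 of the 14 PhenDC3 reads were in replicate 2. IFI27 had 5 reads in all PhenDC3 libraries and 14 in all DMSO libraries, USP18, which removes ISG15 from proteins, had 8 in PhenDC3 and 22 in DMSO, and BST2, which tethers viruses to the cell, had 3 in PhenDC3 and 6 in DMSO. Their scaled ratios of 0.631, 0.643 and 0.884 had exact intervals that included 1, with upper bounds of 1.86, 1.5 and 4.14.

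**Figure D2:**
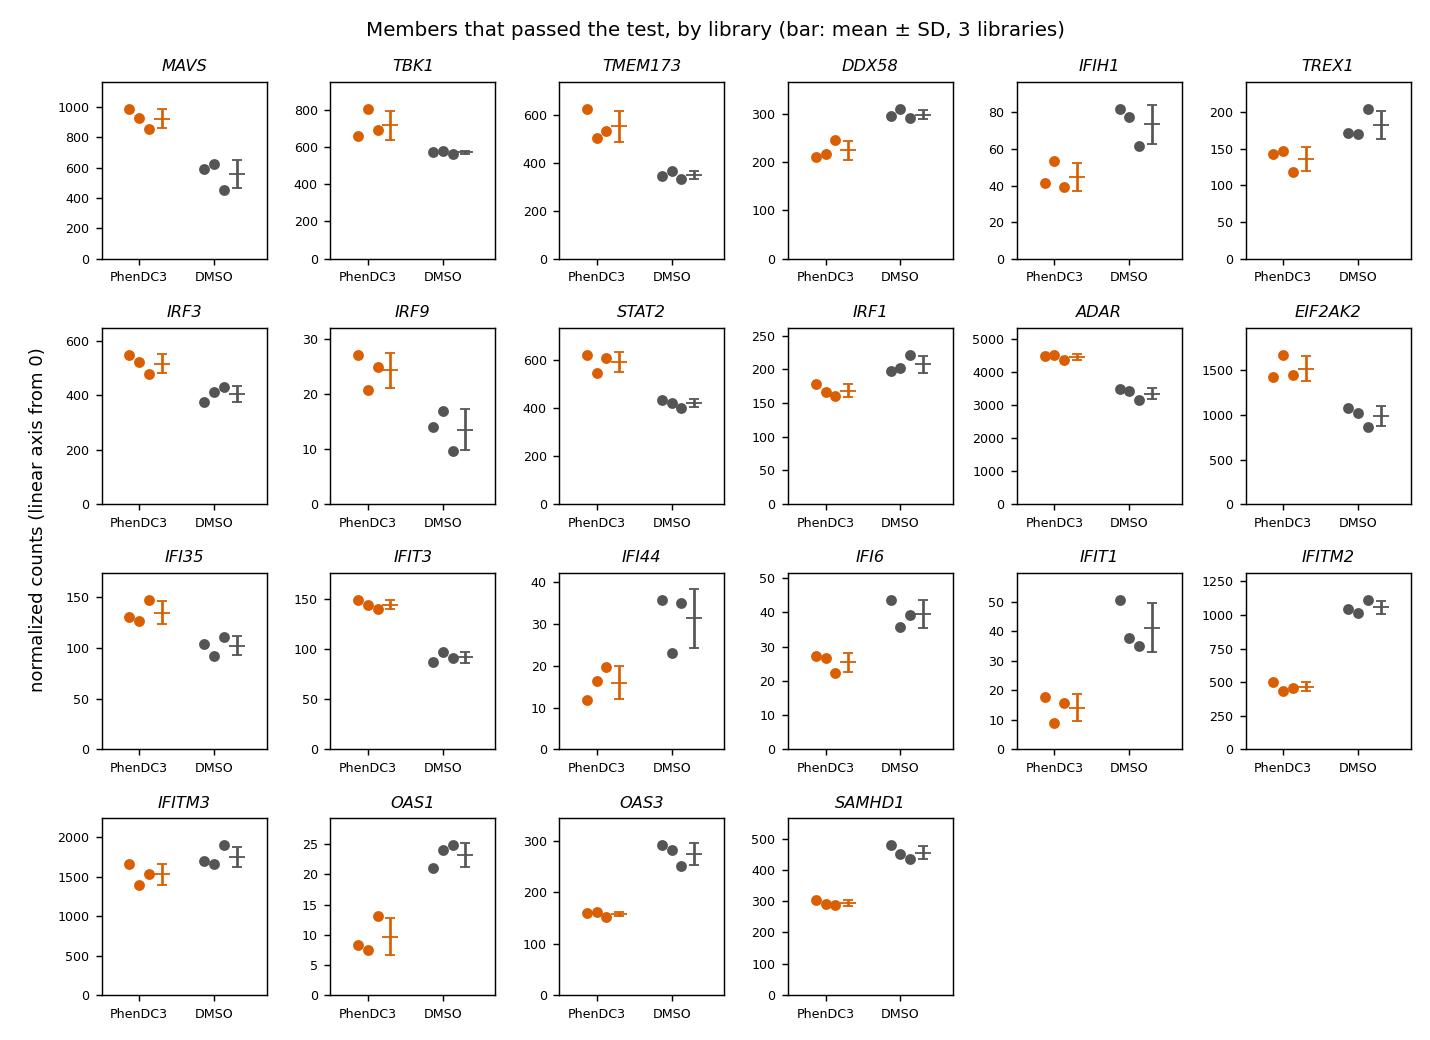
Normalized counts in each of the 6 libraries for the 22 genes that passed the test, on linear axes from 0, with the 3 PhenDC3 libraries left of the 3 DMSO libraries and a bar for the mean ± SD. In every panel the groups do not overlap, as for IFITM2 at 438 to 505 in PhenDC3 and 1017 to 1112 in DMSO, and they nearly meet for IFITM3 and IRF1.

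On a scale of normalized counts per kilobase of exon, IFITM3 was the most abundant of the 36 genes, at 1138 in PhenDC3 and 1303 in DMSO cells. ADAR came next in PhenDC3, at 459.5 in PhenDC3 and 345 in DMSO, and IFITM2 came next in DMSO, at 302 in PhenDC3 and 686 in DMSO. At the other end, IFI27, RSAD2, BST2, OAS2, MX1, OASL and USP18 were all below 3 per kilobase in both groups. Exon lengths are from GENCODE 29 and count all annotated exons of a gene.

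RefSeq start windows matched 27 of the 36 genes, and CGAS, TMEM173, IRF3, IRF7, IFIT2, OAS2, OASL, IFITM2 and USP18 had none to use here. An ISRE core, GAAANNGAAA on either strand, lay in at least 1 window of 15 of the 27 genes, of which 14 were among the 18 effectors. Counted by window, 19 of 35 (54.3%) held it, against 3.57% of the 35116 windows in the RefSeq table. Of the genes called higher, 2 of 8 with a window held a core, EIF2AK2 and IFIT3. Of those called lower 6 of 11 did, and of those tested but not called 4 of 5. The G quadruplex motif was in 8 of the 35 windows (22.9%), against 25.0% of all windows. By gene it lay in 3 of 8 called higher, MAVS, ADAR and EIF2AK2, in 1 of 11 called lower, IRF1, and in 2 of 5 tested but not called, ISG15 and MX1. Neither motif overlapped the other in any of these windows. Windows of 1 gene can share bases, and a match describes the sequence only.

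**Figure D3:**
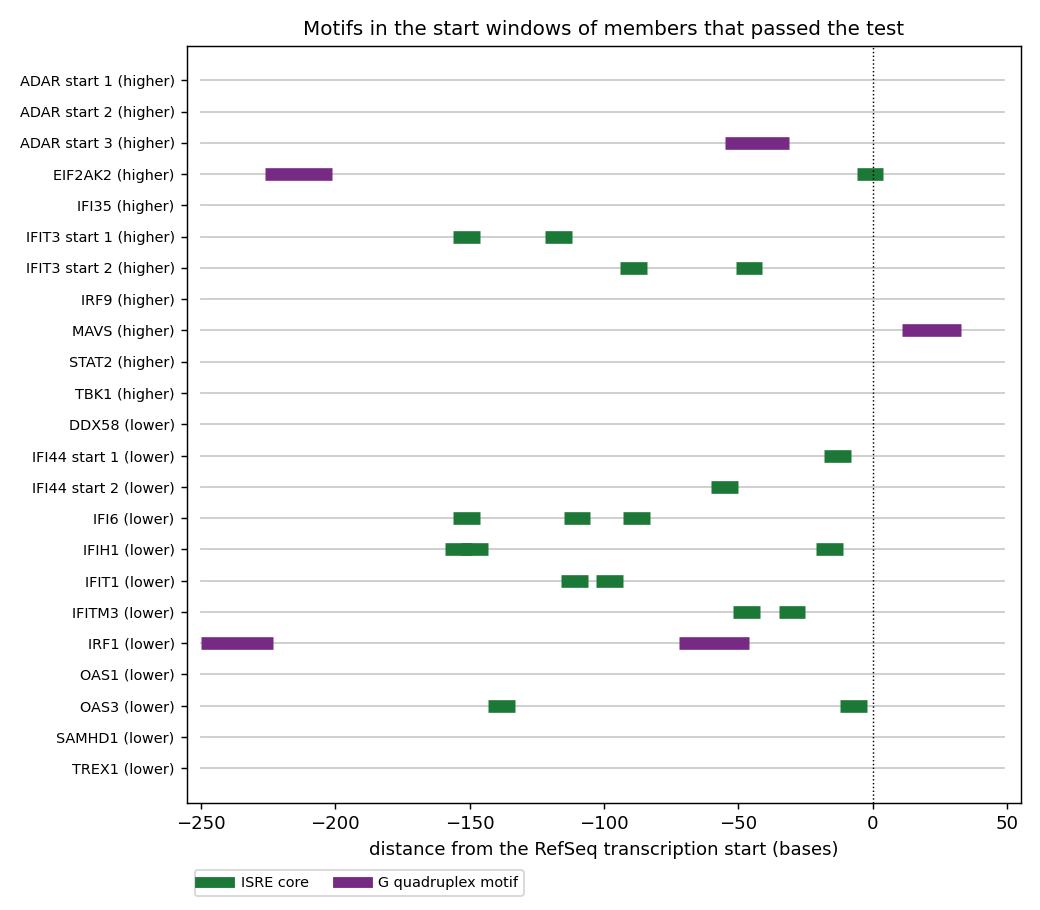
Positions of ISRE cores and G quadruplex motifs, on either strand, in the RefSeq start windows of the genes that passed the test, by distance in bases from the transcription start, with genes called higher above genes called lower. ISRE cores lie in the windows of IFIT3 and EIF2AK2 above and in those of 6 genes below, and G quadruplex motifs in MAVS, ADAR, EIF2AK2 and IRF1.

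Other genes of the pathway were taken from a list of 100, of which 83 were analysed and 75 tested. In limma 17 were higher and 31 lower, 64.0% of those tested beside 59.6% of all genes, with a median log2 fold change of -0.13. Among interferon ligands, IFNE alone was analysed of 9, with 21.3 to 31.5 normalized counts in PhenDC3 and 10.8 to 14.5 in DMSO (limma adjusted p = 0.00577, log2 fold change 0.90 with SE 0.26), and the call was lost with DESeq2 (adjusted p = 0.0544). The other 8 ligands, interferon beta among them, found no match by symbol and were not analysed here. Of the receptors, kinases and feedback genes, 2 of 13 were higher and 5 lower, beside 29.2% and 30.4% of all genes tested. PTPN6, a phosphatase that dampens cytokine signals, was higher on few reads, at 8 to 13 reads per PhenDC3 library and 1 to 5 per DMSO library (limma adjusted p = 0.000148, log2 fold change 2.32 with SE 0.44). TYK2, a kinase bound to the interferon receptor, was lower (limma adjusted p = 0.0014, log2 fold change -0.31 with SE 0.07), as was IFNAR1, a chain of that receptor (limma adjusted p = 0.0038, log2 fold change -0.28 with SE 0.08).

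Of 14 other sensors and signal carriers, 5 were higher and 2 lower (35.7% and 14.3%), beside 29.2% and 30.4% of all genes tested. TRAF3, TICAM1 and TANK, which link adaptors to TBK1, were each higher. TRAF3, a ubiquitin ligase, had 981, 924 and 971 normalized counts in the PhenDC3 libraries, against 632, 644 and 599 in the DMSO libraries (limma adjusted p = 2.38e-07, log2 fold change 0.62 with SE 0.07). TICAM1, which encodes TRIF, the adaptor of the RNA receptor TLR3, rose 1.61-fold (limma adjusted p = 6.79e-07, log2 fold change 0.69 with SE 0.08), and TANK, a scaffold for TBK1, 1.57-fold (limma adjusted p = 1.68e-06, log2 fold change 0.65 with SE 0.09). Among 8 genes of nucleases and cGAMP turnover, 1 was higher and 5 lower, against the same 29.2% and 30.4% of all genes tested. RNASEH2A, the catalytic subunit of the enzyme that removes RNA from RNA-DNA hybrids, had 139.6, 139.9 and 156 normalized counts in the PhenDC3 libraries, against 353, 353 and 383 in the DMSO libraries. It fell to 0.401 of its DMSO level (limma adjusted p = 4.27e-10, log2 fold change -1.31 with SE 0.10), and its partner subunit RNASEH2B to 0.480 (limma adjusted p = 3.03e-08, log2 fold change -1.05 with SE 0.10). ENPP1, which degrades the messenger made by cGAS, was at 0.516 (limma adjusted p = 4.5e-08, log2 fold change -0.94 with SE 0.10).

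Among 39 further interferon-stimulated genes 8 were higher and 19 lower (20.5% and 48.7%), beside 29.2% and 30.4% of all genes tested. Their median log2 fold change was -0.18. APOBEC3F and APOBEC3G, cytidine deaminases that mutate viral DNA, were lower. APOBEC3G had 37.9, 34.2 and 27.6 normalized counts in the PhenDC3 libraries, against 106, 138 and 162 in the DMSO libraries, or 0.245 of the DMSO level (limma adjusted p = 6.15e-09, log2 fold change -1.99 with SE 0.17). APOBEC3F was at 0.345 of its level in DMSO (limma adjusted p = 6.43e-10, log2 fold change -1.52 with SE 0.11). The APOBEC3 genes are close copies of each other, so how reads were divided among them is uncertain. TRIM56, a ubiquitin ligase that acts on the STING route, was higher, with 660.4, 599.9 and 594 normalized counts in the PhenDC3 libraries, against 321, 319 and 273 in the DMSO libraries (limma adjusted p = 3.66e-09, log2 fold change 1.02 with SE 0.09).

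**Figure D4:**
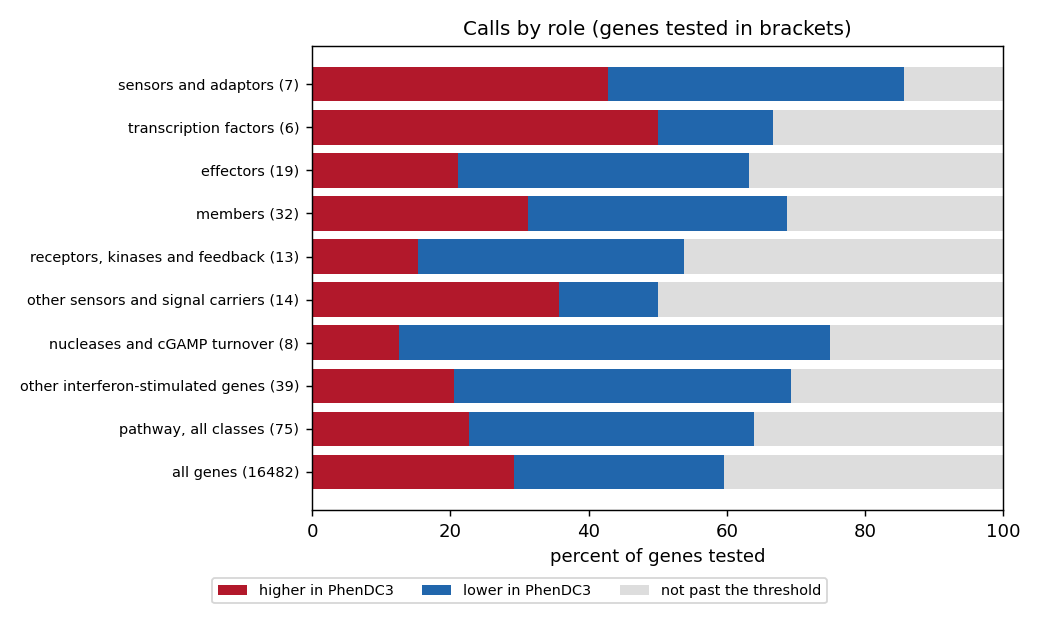
The percent of genes tested that were called higher or lower in PhenDC3, or not called, for the 3 roles, for the 32 genes together, for 4 classes of the wider list and all of it, and for all 16482 genes tested. Calls came to 22 of 32 for the genes described here and 48 of 75 for the wider list, beside 59.6% of all genes.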

How the data were processed

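Poly(A) RNA of 6 HT-1080 libraries, 3 PhenDC3 and 3 DMSO, was sequenced. Per the labels' protocols, RNA was taken with TRIzol and libraries were stranded. The submitters' processing notes name hg19, DESeq2 1.18.1, featureCounts, STAR 2.7, TopHat2 2.0.11, Cuffdiff, Cufflinks 2.2.1 and CASAVA, without roles. The sources used here do not give the annotation or strand setting. The deposited signal values are read counts that the authors divided by a size factor per library: within a relative tolerance of 1e-06, 100% were a whole number of times the lowest nonzero value of their library, which gave the reads back. The authors' deposited log2 fold change and adjusted p-value served as an alternative, the p-value being absent for 1332 genes.

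The main test was limma 3.58.1 (R 4.3.3) on log2(value + 1), with a variance trend, over 16482 genes with a mean of 5 or more, two-sided, Benjamini-Hochberg adjusted, at 0.05. The pseudocount understates fold changes of low genes. edgeR 4.0.16 and DESeq2 1.42.0 on recovered reads, and 18 other settings, were alternatives. The 37 genes, the wider list and the settings were chosen with earlier results of these data known. All 36 genes are named, and of the wider list the 3 called genes of each class with the smallest adjusted p; the within-library ratios were added after their values were seen. Some results are not reported here. GENCODE 29 (GRCh38) gave lengths, overlaps and 50-base words. The test was tried on simulated reads first. Python 3.11.15 was used for tables and figures.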

Additional observations from a re-analysis of the deposited data

How the results depend on the processing

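Of the 22 calls among the 36 genes, 17 kept their direction and their side of the threshold under every alternative in which they were tested, 8 of them higher and 9 lower; this was all 20 for each but OAS1, tested in 19 because its mean is under the stricter minimum of 20. IRF1, IRF9, IFI6, IFI35 and IFITM3 lost theirs under some, and STAT3 gained one under edgeR, the replicate block, thinned reads and without PhenDC3 replicate 2. No gene among the 36 changed direction with a call. DESeq2 and the authors' deposited table each called 8 higher and 9 lower among the 36, beside 39.0% of 21593 genes. Both called 4250 higher and 4168 lower over all genes, so they are not separate checks. edgeR called 11 and 12 of the 29 it tested, beside 63.0% of 14984. When 1 library was left out, 9 to 11 genes were higher and 10 to 12 lower. The 1 lower transcription factor, IRF1, became 0 with DESeq2, in the deposited table, at an adjusted p under 0.01 and with thinned reads, and ranged from 0 to 1 with 1 library left out. The wider list's 31 lower genes became 20 with DESeq2, in the deposited table and at an adjusted p under 0.01, the last by its own construction; for the others the cause was not tested. TMM scaling moved the median log2 fold change of all genes tested to -0.06 and changed no call among the 36. Same-numbered libraries had residual correlations of 0.008, 0.071 and 0.027, which gives no sign of pairing; with the replicate number as a block 11 were higher and 12 lower. For genes of few reads depth is the limit: the intervals of MX1 and OAS2 reach log2 fold changes of -1.03 and -1.07, so these data do not exclude falls of up to that size.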
